A study of Mus musculus with 39 samples.

Results

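The signal transducers Stat2, Stat3 and Stat4 and the feedback inhibitors Socs1, Socs2, Socs3 and Cish were followed in RNA-seq libraries of sorted mouse lymph node cells. Members were taken by gene symbol, so that these 7 genes stand out of 24689 symbols listed over all tables. Each of the 7 had a row in every table, and each passed the filter on low values in all 4 experiments.

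STAT proteins wait in the cytoplasm until a cytokine receptor recruits Janus kinases (JAK), which phosphorylate them. Phosphorylated STATs pair, enter the nucleus and switch on target genes. STAT2 works with IRF9 downstream of type I interferon, STAT3 is the main transducer of interleukin-6, interleukin-10 and interleukin-21, and STAT4 that of interleukin-12. SOCS proteins are themselves induced by STATs and close the loop by blocking the kinases or the receptors. SOCS1 restrains interferon signalling, SOCS3 acts on receptors that contain gp130, and SOCS2 and CISH are known as products of STAT5 signalling. In dendritic cells (DC), which carry antigen to T cells, SOCS1 and SOCS3 are known as brakes on maturation and cytokine output.

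Promoter windows of RefSeq, build GRCm38.p6, from 250 bases before to 49 after the first base of each gene (300 bases in all), were found for 6 of the 7 members. They were searched on both strands for a pair of core motifs that differ in the factors they are known to bind. TTCNNNGAA is the palindromic core bound by STAT dimers, and GAAANNGAA is a core of elements bound by interferon regulatory factors. TTCNNNGAA was matched in 8.30% of all 32851 windows and GAAANNGAA in 8.56%. Socs2 had no window and was not searched. The stretches that hold a match are shown because they separate the other inhibitors by motif. They are given with 30 bases on each side where the window allows it and the matched letters in capitals.
Cish, chr9:107296629-107296708, plus strand: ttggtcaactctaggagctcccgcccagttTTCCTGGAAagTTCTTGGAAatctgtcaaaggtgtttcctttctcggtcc
Socs3, chr11:117969482-117969550, minus strand: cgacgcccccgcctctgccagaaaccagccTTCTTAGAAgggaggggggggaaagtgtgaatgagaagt
Socs1, chr16:10785575-10785649, minus strand: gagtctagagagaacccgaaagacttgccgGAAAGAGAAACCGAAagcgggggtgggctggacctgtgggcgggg
Stat2, chr10:128270248-128270315, plus strand: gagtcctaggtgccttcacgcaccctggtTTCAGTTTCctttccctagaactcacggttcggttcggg
Stat4, chr1:52008113-52008181, plus strand: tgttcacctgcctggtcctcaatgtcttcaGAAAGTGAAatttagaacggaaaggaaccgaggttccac

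The windows of Cish and Socs3 held the STAT core, with 2 matches in Cish and 1 in Socs3. Those of Socs1, Stat2 and Stat4 held the interferon regulatory factor core, with 2 overlapping matches in Socs1, 1 match on the opposite strand in Stat2 and 1 in the second of 2 Stat4 windows. Neither motif was matched in the Stat3 window or the first Stat4 window. A match describes the letters of these windows and no binding was measured.

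All mice were C57BL/6, 8 to 12 weeks old, and the immunized ones received nanoparticles under the skin of the hock. The particles carried CpG, which activates Toll-like receptor 9. CpG was the only cargo, or came with a protein antigen, either OVA (ovalbumin) or BSA (bovine serum albumin). OT denotes transferred T cells whose receptor recognizes an OVA peptide. The time course held DC 12 h and 24 h after OVA particles, 12 h and 24 h after CpG-only particles, and DC of non-immunized wild-type mice (2 libraries each). The 20 h experiment held DC after OVA particles, after BSA particles and of non-immunized wild-type mice (5 libraries each). For these 2 experiments the labels do not say sample by sample whether the mice carried OT cells. The costimulation experiment at 12 h held Cd80/86 knockout mice with OVA and OT cells, wild-type mice with OVA and OT cells, wild-type mice with OVA and no OT cells, and wild-type mice with BSA and OT cells (2 libraries each). CD4+ OT-II T cells were sequenced 20 h after OVA or BSA particles (3 libraries each).

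Total counts ran from 612017 to 1329203 in the time course, 628404 to 1621784 in the costimulation experiment, 367209 to 2052904 at 20 h and 155088 to 1316341 recovered reads in T cells. The lowest DC total was that of non-immunized replicate 3 of the 20 h experiment, which stood apart for several members below. Levels in DC are given as CPM, the count scaled to a library total of 1e+06, and those of T cells are the deposited normalized counts. Genes differ in length, so levels are set side by side only within a gene. Markers of conventional DC, 9 genes such as Flt3 and Itgax, were present in every DC library, with summed levels of 2577 to 12281 CPM in the time course, 4804 to 23598 CPM in the costimulation experiment and 16275 to 35544 CPM at 20 h. DC libraries of the time course also held 2292 to 7661 CPM of 18 T cell markers, against 155 to 911 CPM in the costimulation experiment and 223 to 447 CPM at 20 h. Non-immunized DC of the time course had conventional DC sums of 2577 to 4189 CPM and T cell sums of 7281 to 7661 CPM. After OVA particles the former were 3611 to 3848 CPM at 12 h and 6366 to 6688 CPM at 24 h. After CpG-only particles they were 6114 to 12281 CPM and 4662 to 8717 CPM. Every immunized library had a lower T cell sum than the non-immunized pair. The part of these shifts in the member values was not tested. In bulk RNA, a change in the number of cells of a type and a change in RNA per cell cannot be told apart. Whether libraries of 1 group stem from different animals is not in the labels, and p-values therefore measure the spread between these libraries.

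**Figure D1:**
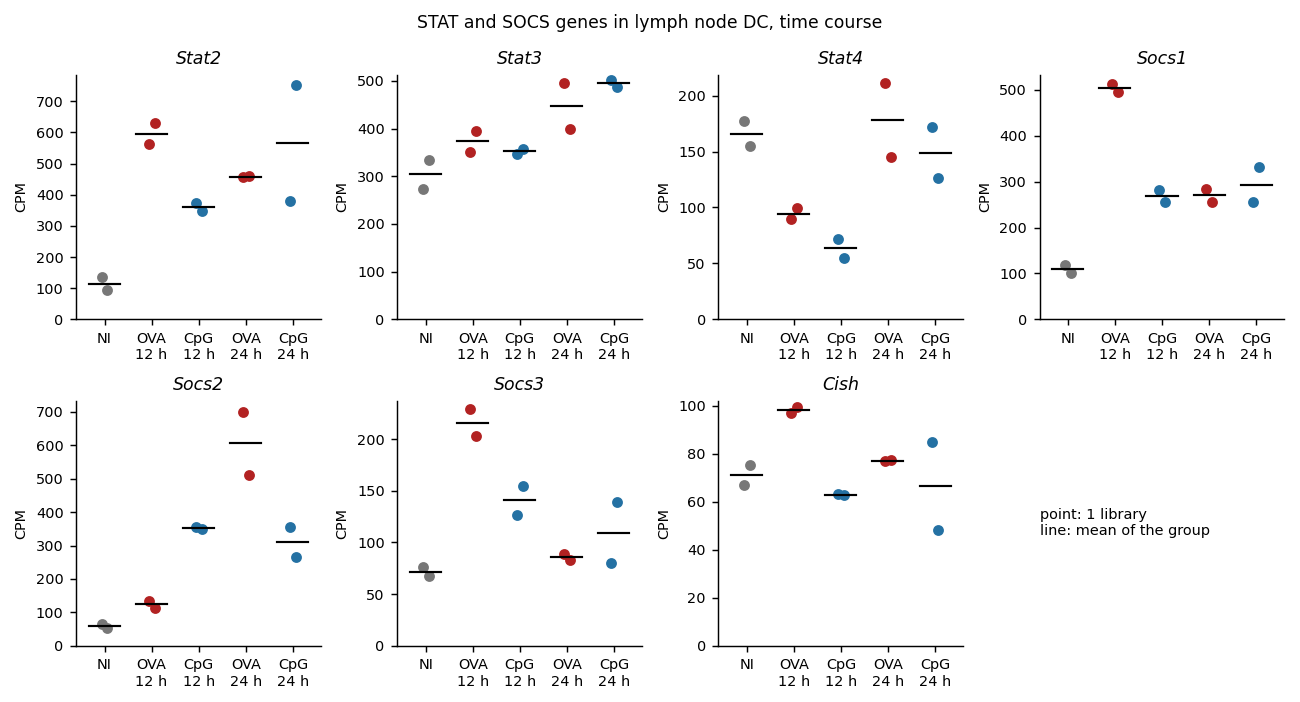
Levels of the 7 genes in the time course (y axis, CPM from 0) in non-immunized mice (NI) and 12 h and 24 h after OVA or CpG-only particles (x axis); each point is 1 library and each line the mean of 2. Stat2, Stat3, Socs1, Socs2 and Socs3 lie above NI in every immunized library, Stat3 and Socs3 narrowly in some. Socs2 is lowest of the immunized groups 12 h after OVA particles, where Socs1 and Socs3 are highest.

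In the time course Stat2, Socs1 and Socs2 rose over non-immunized DC after both kinds of particle and at both times, and Socs3 rose in 3 of the 4 comparisons. Stat3 rose at 24 h, Stat4 fell 12 h after CpG-only particles, and Cish passed the test in none of the 4. At 12 h after CpG-only particles 4 members were called higher and 1 lower (edgeR, adjusted p under 0.05), while 11.6% of the 9428 genes tested were called higher and 4.65% lower. At 24 h after CpG-only particles 5 were higher and 0 lower, with 7.96% of all genes higher and 3.05% lower. OVA particles gave 4 higher and 0 lower members at 12 h, where 9.56% of all genes were higher and 4.04% lower, and 4 higher and 0 lower at 24 h, where 10.2% were higher and 3.92% lower. The median log2 change of the 7 members was 1.19 and 0.906 at 12 h and 24 h after CpG-only particles and 1.32 and 0.781 after OVA particles, with medians over all genes between -0.0323 and 0.00250. These comparisons share their non-immunized libraries. Scaling by the library total in place of TMM shifts all genes here: the fitted log2 change exceeded the log2 ratio of mean CPM by 0.20 to 0.23 (median over genes), and by 0.14 to 0.15 in comparisons with non-immunized DC at 20 h.

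Stat2, which works with IRF9 in the response to type I interferon, had 563 and 630 CPM 12 h after OVA particles, 457 and 459 CPM at 24 h, 372 and 349 CPM 12 h after CpG-only particles and 381 and 753 CPM at 24 h, against 135 and 95.2 CPM in non-immunized DC. No immunized library overlapped with the non-immunized pair. The log2 changes were 2.60 ± 0.27 (SE, adjusted p = 5.07e-06) and 2.20 ± 0.27 (adjusted p = 2.41e-05) for OVA particles at 12 h and 24 h, and 1.86 ± 0.27 (adjusted p = 1.51e-04) and 2.51 ± 0.27 (adjusted p = 9.47e-06) for CpG-only particles. The order of the means was OVA at 12 h, CpG at 24 h, OVA at 24 h, CpG at 12 h and non-immunized, and among immunized groups no tested pair was called different. The 2 CpG libraries at 24 h differ most from each other. Between 12 h and 24 h of CpG-only particles all libraries gave a log2 change of 0.65 ± 0.25 for Stat2 (adjusted p = 0.140). With 1 library left out this change ran from 0.07 to 1.01, the latter without the lower 24 h library, replicate 1.

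Plasmacytoid DC markers, 10 genes such as Siglech, Bst2 and Irf8, moved in the same comparisons as Stat2, Socs1 and Socs2. They summed to 2362 to 2588 CPM 12 h after OVA particles and 2012 to 2223 CPM at 24 h, 1843 to 1900 CPM 12 h after CpG-only particles and 2042 to 2963 CPM at 24 h, and 980 to 1118 CPM in non-immunized DC. Of 7 tested, 4 were called higher at 12 h and 5 at 24 h in each arm, and Ccr9 was called lower in all 4 comparisons. Bst2, which is also known as an interferon-induced gene, had means of 1670 and 1096 CPM at 12 h and 24 h of OVA and 822 and 1229 CPM of CpG-only particles, against 211 CPM. The other 9 summed to 689 to 920 and 922 to 1120 CPM after OVA and 860 to 1239 and 912 to 1636 CPM after CpG-only particles, against 815 to 860 CPM. Siglech was at 0 in every library except the 24 h OVA pair, which had 1.28 and 1.21 CPM. B cell markers, 10 genes, summed to 501 to 1202 CPM after OVA particles, 552 to 2416 CPM after CpG-only particles and 508 to 519 CPM in non-immunized DC. The part of these markers in the Stat2, Socs1 and Socs2 values was not tested.

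Stat3, the transducer of interleukin-6 and interleukin-10 signals, had 495 and 400 CPM 24 h after OVA particles and 502 and 488 CPM 24 h after CpG-only particles, against 274 and 334 CPM in non-immunized DC. Both 24 h groups lie above the non-immunized libraries, and so do the 12 h groups given below. The log2 changes were 0.78 ± 0.19 (adjusted p = 0.0105) for OVA and 0.91 ± 0.19 (adjusted p = 0.00466) for CpG-only particles. Without non-immunized replicate 1 the changes were 0.65 (adjusted p = 0.146) and 0.78 (adjusted p = 0.0970), past the threshold in neither. The OVA change at 24 h was also lost without OVA replicate 1 (0.57, adjusted p = 0.162). At 12 h Stat3 had 352 and 395 CPM after OVA particles and 347 and 358 CPM after CpG-only particles, with log2 changes of 0.53 ± 0.19 (adjusted p = 0.0802) and 0.43 ± 0.19 (adjusted p = 0.151).

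Stat4, the transducer of interleukin-12 known mainly from T cells, NK cells and activated DC, had 72.1 and 55.2 CPM 12 h after CpG-only particles, against 177 and 155 CPM in non-immunized DC, a log2 change of -1.16 ± 0.26 (adjusted p = 0.00573). At 12 h after OVA particles it had 89.5 and 99.5 CPM, again below both non-immunized libraries, with a log2 change of -0.59 ± 0.25 (adjusted p = 0.130). At 24 h the values were 211 and 145 CPM after OVA particles and 172 and 126 CPM after CpG-only particles, which overlap with the non-immunized range. Stat4 was higher at 24 h than at 12 h in both arms, by 1.18 ± 0.27 after CpG-only particles (adjusted p = 0.0128) and by 0.91 ± 0.25 after OVA particles (adjusted p = 0.0317).

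Each of these Stat4 calls leaned on single libraries. The fall at 12 h after CpG-only particles was -1.05 (adjusted p = 0.0572) without non-immunized replicate 1 and -0.95 (adjusted p = 0.0901) without CpG replicate 2, and the later rise of that arm was 0.98 (adjusted p = 0.147) without the same CpG library and not called in a fit of only those 2 groups (1.19, adjusted p = 0.0573). In the OVA arm the rise was lost without 12 h replicate 1 (0.82, adjusted p = 0.219), 12 h replicate 2 (0.98, adjusted p = 0.110) or 24 h replicate 1 (0.53, adjusted p = 0.409), and DESeq2 did not call it. T cell marker sums also differed between these groups, though not in the same order as Stat4. They were 2292 to 3406 CPM 12 h after CpG-only particles and 3859 to 3918 CPM 12 h after OVA particles. At 24 h they were 4753 to 5305 CPM after CpG-only and 3958 to 4444 CPM after OVA particles. Non-immunized DC had 7281 to 7661 CPM, and none of the 18 markers was at 0. Of the 18, 16 were called lower 12 h after CpG-only particles. Their part in the Stat4 values was not tested.

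Socs1, the inhibitor of interferon receptors and their kinases, had 513 and 495 CPM 12 h after OVA particles, 285 and 255 CPM at 24 h, 283 and 255 CPM 12 h after CpG-only particles and 255 and 332 CPM at 24 h, against 119 and 102 CPM in non-immunized DC. Every immunized library is above the non-immunized ones, and the 12 h OVA pair is above all others. The log2 changes against non-immunized DC were 2.41 ± 0.20 (adjusted p = 5.02e-07) and 1.50 ± 0.20 (adjusted p = 5.88e-05) for OVA at 12 h and 24 h and 1.49 ± 0.20 (adjusted p = 7.91e-05) and 1.61 ± 0.20 (adjusted p = 3.95e-05) for CpG-only particles. Those 4 calls held under each of the 10 alternatives run on them.

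Socs3, the inhibitor of gp130-type receptors, followed Socs1 after OVA particles. It had 229 and 203 CPM 12 h after OVA particles and 88.3 and 83.4 CPM at 24 h, 127 and 155 CPM 12 h after CpG-only particles and 80.1 and 139 CPM at 24 h, against 75.8 and 67.3 CPM in non-immunized DC. The log2 changes were 1.82 ± 0.24 (adjusted p = 5.39e-05) and 0.47 ± 0.25 (adjusted p = 0.249) for OVA at 12 h and 24 h, and 1.19 ± 0.24 (adjusted p = 0.00280) and 0.85 ± 0.24 (adjusted p = 0.0314) for CpG-only particles. The 24 h OVA libraries are therefore just above the non-immunized pair and not called. The CpG call at 24 h was lost in 5 of 10 alternatives, DESeq2, the fit of only those 2 groups and the fits without non-immunized replicate 1 (0.95, adjusted p = 0.122), non-immunized replicate 2 (0.75, adjusted p = 0.246) and CpG replicate 2 (0.38, adjusted p = 0.503). That at 12 h was lost without non-immunized replicate 2 (1.09, adjusted p = 0.0546).

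Myeloid marker sums also differed between these groups. Neutrophil markers, 11 genes such as S100a8, summed to 2430 to 2461 CPM 12 h after OVA particles and 453 to 2608 CPM at 24 h, 14166 to 18056 CPM 12 h after CpG-only particles and 101 to 858 CPM at 24 h, and 132 to 197 CPM in non-immunized DC. Neutrophil markers were thus highest 12 h after CpG-only particles, and Socs3 was highest 12 h after OVA particles. Monocyte and macrophage markers, 16 genes, summed to 3610 to 3984 CPM 12 h after OVA particles and 1172 to 1237 CPM at 24 h, 3071 to 3352 CPM 12 h after CpG-only particles and 1467 to 1504 CPM at 24 h, and 2746 to 2821 CPM in non-immunized DC. Mertk was at 0 in all groups except 12 h after OVA particles. All 12 of these markers that were tested were called lower at 24 h than at 12 h of OVA particles, as Socs3 was. Their part in the Socs1 and Socs3 values was not tested.

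Socs2, a STAT5-induced member known as a regulator of growth hormone signalling, had the largest log2 change of the 7 against non-immunized DC in the time course. It had 134 and 114 CPM 12 h after OVA particles and 701 and 512 CPM at 24 h, 357 and 351 CPM 12 h after CpG-only particles and 355 and 265 CPM at 24 h, against 64.4 and 52.1 CPM in non-immunized DC. All immunized libraries lie above the non-immunized pair, and the 2 OVA times lie on either side of the CpG libraries. The log2 changes were 1.32 ± 0.25 (adjusted p = 0.00189) and 3.60 ± 0.25 (adjusted p = 2.50e-07) for OVA at 12 h and 24 h, and 2.81 ± 0.25 (adjusted p = 2.58e-06) and 2.60 ± 0.25 (adjusted p = 2.87e-06) for CpG-only particles. In the order of means, OVA at 24 h, CpG at 12 h, CpG at 24 h, OVA at 12 h and non-immunized, the 2 CpG times were not called different (log2 change at 24 h against 12 h of -0.21 ± 0.22, adjusted p = 0.637).

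Markers of migratory and mature DC, 12 genes such as Ccr7 and Fscn1, ran in a similar order to Socs2. Their sums were 991 to 1276 CPM 12 h after OVA particles and 5118 to 6356 CPM at 24 h, 4005 to 4445 CPM 12 h after CpG-only particles and 2280 to 3407 CPM at 24 h, and 514 to 852 CPM in non-immunized DC. Epcam was at 0 in the 24 h CpG group. Their part in the Socs2 values was not tested.

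Cish, the founding member of the SOCS family, stayed closer to its starting level. It had 96.9 and 99.5 CPM 12 h after OVA particles, 76.8 and 77.3 CPM at 24 h, 63.1 and 62.7 CPM 12 h after CpG-only particles and 85.0 and 48.1 CPM at 24 h, against 66.9 and 75.4 CPM in non-immunized DC. The 12 h OVA pair is above all other libraries, with a log2 change of 0.69 ± 0.24 that was not called (adjusted p = 0.0711). The remaining log2 changes were 0.33 ± 0.25 for OVA at 24 h (adjusted p = 0.442) and 0.04 for CpG-only particles at each time, with SE of 0.26 and adjusted p = 0.941 and 0.956. After CpG-only particles the mean CPM was below that of non-immunized DC while the fitted change was not, which is the shift of scale given above.

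Particles with antigen were then set against CpG-only particles at the same time, which in this design asks what OVA adds to the adjuvant. At 12 h Socs1 was higher after OVA particles, by a log2 change of 0.92 ± 0.19 (adjusted p = 0.0152), and Socs2 was lower, by -1.49 ± 0.23 (adjusted p = 0.00284). Only 0.753% of all genes were called higher and 1.71% lower in that comparison. The total of 232 calls fell to 37 without CpG replicate 2, 51 without OVA replicate 1 and 24 without OVA replicate 2. The other 5 members were not called. Their log2 changes were 0.74 ± 0.25 for Stat2 (adjusted p = 0.184), 0.63 ± 0.23 for Socs3 (adjusted p = 0.218) and 0.65 ± 0.26 for Cish (adjusted p = 0.268). Stat4 was at 0.56 ± 0.27 (adjusted p = 0.411) and Stat3 at 0.09 ± 0.19 (adjusted p = 0.921). The Socs1 call was lost when any 1 of the 4 libraries was left out (0.84 to 0.98, adjusted p = 0.0661 to 0.220), and the Socs2 call without OVA replicate 2 (-1.38, adjusted p = 0.0790). Migratory markers differed in the same comparison, with 9 of 10 tested called lower after OVA particles, and neutrophil markers with 5 of 7 lower.

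At 24 h no gene was called between OVA and CpG-only particles by edgeR (0% higher and 0% lower, with 959 genes at an unadjusted p under 0.05), while DESeq2 called 37. One library decided that total: without CpG replicate 1 edgeR called 453 genes (298 higher and 155 lower). It also called 240 with no filter on low counts and 8 with a filter of 1 CPM. Among the members Socs2 differed most, by 1.00 ± 0.22 with both OVA libraries above both CpG libraries (adjusted p = 0.121). With all 4 libraries kept, the adjusted p of the alternatives lay between 7.51e-04 (no filter on low counts) and 0.548 (only those 2 groups in the fit), and DESeq2 gave 0.0159. With 1 library left out it lay between 0.00215 (without CpG replicate 1, log2 difference 1.24) and 0.771 (without OVA replicate 1, 0.70). The remaining members had log2 differences between -0.38 and 0.30.

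Between 12 h and 24 h the arms took different courses. After OVA particles Socs2 rose by 2.27 ± 0.23 (adjusted p = 1.97e-05) and Stat4 rose as given above, while Socs3 fell by 1.35 ± 0.24 (adjusted p = 0.00186) and Socs1 fell by 0.91 ± 0.19 (adjusted p = 0.00586). The Socs1 fall was lost without 12 h replicate 1 (-0.90, adjusted p = 0.0520) or 24 h replicate 2 (-0.78, adjusted p = 0.0721). Of all genes 5.03% rose and 3.87% fell. After CpG-only particles Stat4 alone among the members was called, with 3.36% of all genes higher and 4.26% lower. The difference between the arms was tested as an interaction, where 2.69% of all genes were called higher and 0.689% lower. It was called for Socs2, at 2.49 ± 0.32 (adjusted p = 3.68e-04), and for Socs1, at -1.03 ± 0.27 (adjusted p = 0.0459). The Socs2 call held under all 14 alternatives, with log2 values of 2.19 to 2.74 when 1 library was left out, and the Socs1 call was lost in 9 of them. Stat2 (-1.04 ± 0.36, adjusted p = 0.146) and Socs3 (-1.01 ± 0.34, adjusted p = 0.132) had interaction terms of like size that were not called. With 1 library left out they ran from -1.44 to -0.45 for Stat2 and from -1.32 to -0.52 for Socs3. The values of -1.44 and -1.32 were those without CpG replicate 1 at 24 h.

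Other genes of the pathway are given from lists of relatives, kinases, ligands, receptors and targets. The STAT genes Stat5a, Stat5b and Stat6 passed the test in none of the 4 comparisons with non-immunized DC. Of the Janus kinases Jak2 rose in all 4 (log2 changes of 0.87 to 1.68), and Jak1 fell at 12 h, by -0.60 ± 0.17 after OVA and -0.92 ± 0.17 after CpG-only particles. Of the other SOCS family genes, 3 of 4 were tested and 0 were called. Usp18, the other known inhibitor of the interferon receptor, rose in all 4, to means of 616 and 492 CPM after OVA particles and 377 and 561 CPM after CpG-only particles, against 65.3 CPM.

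Ligands and targets were counted list by list, and no pathway activity was measured. Of 7 tested cytokine ligands 5 rose after OVA particles at each time and 4 after CpG-only particles. Il6 had means of 59.8 and 53.4 CPM at 12 h and 24 h of OVA and 42.7 and 44.9 CPM of CpG-only particles, against 8.08 CPM, and Il15 had 95.8, 143, 97.2 and 89.6 CPM, against 21.2 CPM. All 16 type I interferon targets on the list rose in each of the 4 comparisons, with median log2 changes of 3.72 and 3.15 for OVA and 2.78 and 3.38 for CpG-only particles. Of 10 STAT3 targets 4 and 3 rose after OVA and 4 and 2 after CpG-only particles, among them Bcl3 in every comparison. Of 9 STAT5 targets 3 rose in each comparison, Gadd45b and Osm among them, and Bcl2 fell at 12 h in both arms. The order of the 5 group means of Socs2 was also that of 2 of the 9 STAT5 targets, Gadd45b and Ccnd3, and not of the other 7. Pim1, for example, was highest 12 h after OVA particles (378 CPM) and had 172 CPM at 24 h, 250 and 212 CPM at 12 h and 24 h of CpG-only particles and 128 CPM in non-immunized DC. Ccnd3 means spanned 386 to 431 CPM. Gadd45b, described here because of its order, had means of 286 and 1332 CPM 12 h and 24 h after OVA particles and 751 and 568 CPM after CpG-only particles, against 123 CPM in non-immunized DC, and its interaction was 2.64 ± 0.38 (adjusted p = 8.68e-04).

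**Figure D2:**
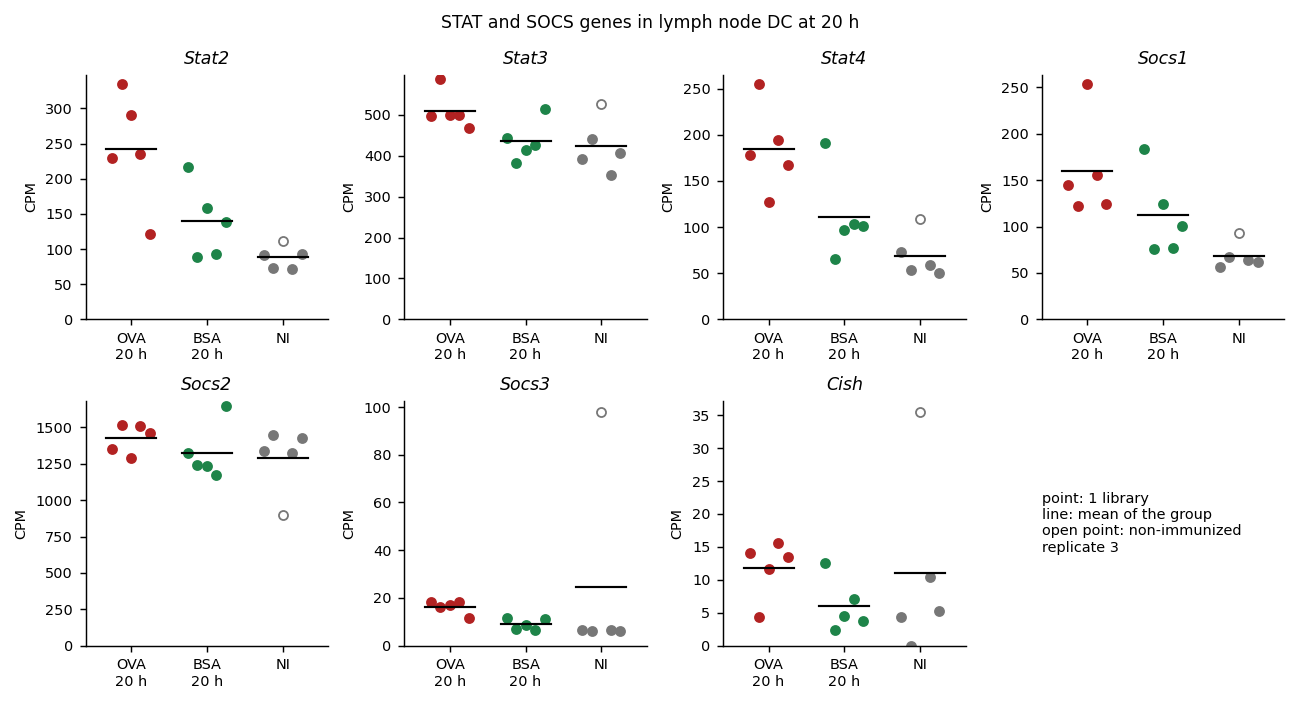
Levels of the 7 genes at 20 h (y axis, CPM from 0) after OVA particles, after BSA particles and in non-immunized DC (NI); points are libraries, lines means of 5, and the open point is non-immunized replicate 3. Stat2, Stat4 and Socs1 of OVA libraries lie above all non-immunized ones, Socs2 overlaps between the groups, and the open point is far above the other NI libraries for Socs3 and Cish.

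In the 20 h experiment, with 5 libraries a group, Stat2, Stat4 and Socs1 rose after OVA particles and Stat3 passed the test narrowly. For OVA particles 4 members were called higher and 0 lower, while 9.59% of the 9159 genes tested were higher and 6.04% lower. For BSA particles 1 member, Socs1, was called higher and 0 lower, with 3.68% of all genes higher and 1.77% lower. The median log2 change of the 7 members was 0.767 for OVA and 0.189 for BSA, against -0.0133 and -0.00800 over all genes. Both comparisons share the 5 non-immunized libraries.

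Stat2 had 229, 335, 290, 235 and 121 CPM after OVA particles and 217, 89.0, 159, 93.1 and 139 CPM after BSA particles, against 90.9, 73.0, 112, 72.0 and 92.8 CPM in non-immunized DC. The OVA libraries lie above the non-immunized range and the BSA libraries overlap with it. Fitted log2 changes were 1.62 ± 0.26 for OVA (adjusted p = 2.91e-04) and 0.85 ± 0.26 for BSA (adjusted p = 0.0631). The BSA change was called without BSA replicate 2 (0.99, adjusted p = 0.0292) or 4 (0.94, adjusted p = 0.0419) and by DESeq2 (adjusted p = 0.0444).

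The plasmacytoid DC markers also differed between the groups at 20 h. They summed to 1876, 2176, 2107, 2021 and 1440 CPM after OVA particles and 1940, 1121, 1515, 1246 and 1446 CPM after BSA particles, against 1052 to 1183 CPM in non-immunized DC. BSA replicate 1, with the highest sum of its group, also had the highest Stat2, Stat4 and Socs1 levels of that group. OVA replicate 5, with the lowest sum of its group, had the lowest Stat2 level. Single libraries did not always run together: OVA replicate 2, with the highest sum, had the lowest Socs1 level of its group. OVA replicate 3, with the next highest sum, had the lowest Stat4 level. Of 7 tested, 3 were called higher after OVA particles (Bst2, Pacsin1 and Irf8) and 1 after BSA particles (Bst2). Without Bst2 the sums were 1021 to 1694 CPM after OVA and 891 to 1364 CPM after BSA particles, against 846 to 1056 CPM. Siglech had 0 to 2.55 CPM after OVA and 0 to 5.73 CPM after BSA particles, against 3.80 to 16.3 CPM. Markers of type 1 conventional DC were called lower for 6 of 11 tested after OVA and 0 after BSA particles, and those of type 2 for 5 and 4 of 9. Their part in the member values was not tested.

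Stat4 had 178, 255, 127, 194 and 167 CPM after OVA particles and 191, 65.3, 96.8, 103 and 101 CPM after BSA particles, against 73.4, 53.3, 109, 58.6 and 50.4 CPM in non-immunized DC. Again the OVA libraries lie above the non-immunized range and the BSA libraries overlap with it. The log2 changes were 1.64 ± 0.28 for OVA (adjusted p = 3.99e-04) and 0.93 ± 0.28 for BSA (adjusted p = 0.0526), and the BSA change was called without BSA replicate 2 (1.08, adjusted p = 0.0209) or non-immunized replicate 3 (1.08, adjusted p = 0.0254). T cell markers summed to 223 to 403 CPM after OVA particles, 323 to 349 CPM after BSA particles and 346 to 447 CPM in non-immunized DC. Il12b, which encodes a subunit of the cytokine that activates STAT4, had means of 179 CPM after OVA particles and 86.5 CPM in non-immunized DC (log2 change 1.24 ± 0.31, adjusted p = 0.00876).

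Stat3 had 497, 587, 501, 499 and 467 CPM after OVA particles and 443, 383, 414, 426 and 515 CPM after BSA particles, against 392, 441, 526, 352 and 406 CPM in non-immunized DC. The OVA change of 0.42 ± 0.14 (adjusted p = 0.0470) was lost in 13 of 17 alternatives, among them every fit that left out 1 of the 5 OVA libraries (0.34 to 0.41, adjusted p = 0.0633 to 0.119) or a non-immunized library other than replicate 3 (0.34 to 0.42, adjusted p = 0.0803 to 0.134). After BSA particles it was 0.19 ± 0.14 (adjusted p = 0.483).

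Socs1 had 145, 122, 254, 156 and 124 CPM after OVA particles and 184, 75.6, 124, 76.4 and 101 CPM after BSA particles, against 56.9, 67.7, 92.6, 64.1 and 62.3 CPM in non-immunized DC. The OVA libraries did not overlap with non-immunized ones. On the log2 scale the changes were 1.41 ± 0.25 for OVA (adjusted p = 7.00e-04) and 0.90 ± 0.26 for BSA (adjusted p = 0.0402). The BSA call was lost in 7 of 17 alternatives, without BSA replicate 1 (0.59, adjusted p = 0.164), 3 (0.88, adjusted p = 0.0885) or 5 (0.92, adjusted p = 0.0678) and when non-immunized replicate 1, 2, 4 or 5 was left out (0.83 to 0.89, adjusted p = 0.0860 to 0.118).

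Socs2 had 1291 to 1513 CPM after OVA particles (median 1459), 1176 to 1645 CPM after BSA particles (median 1242) and 901 to 1447 CPM in non-immunized DC (median 1338). The groups overlap and neither change was called, at 0.30 ± 0.14 for OVA (adjusted p = 0.149) and 0.18 ± 0.14 for BSA (adjusted p = 0.482). Non-immunized DC of the time course had 64.4 and 52.1 CPM, but these tables come from separate experiments and no test was made across them. Markers of migratory and mature DC differed between the experiments in the same direction, with sums of 10542 to 18850 CPM in the 5 non-immunized libraries at 20 h and 514 to 852 CPM in those of the time course. So did conventional DC markers, with 21154 to 35544 CPM at 20 h and 2577 to 4189 CPM in the time course. T cell markers differed in the other direction, with 346 to 447 CPM and 7281 to 7661 CPM. Within the 20 h experiment the migratory and mature DC sums were 18893 to 26146 CPM after OVA particles, above all non-immunized libraries, where Socs2 overlapped. After BSA particles they were 15305 to 21936 CPM. The part of these markers in the Socs2 values was not tested.

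Socs3 was low at 20 h, with 18.1, 16.4, 17.0, 18.4 and 11.5 CPM after OVA particles and 11.6, 7.08, 8.59, 6.37 and 11.3 CPM after BSA particles, against 6.57, 6.09, 98.0, 6.71 and 5.96 CPM in non-immunized DC. Apart from non-immunized replicate 3, every OVA library is above every non-immunized one. With that library the OVA change was 0.20 ± 0.60 (adjusted p = 0.851). Without it the change was 1.49 and called (adjusted p = 9.32e-04). The library also had the highest monocyte and macrophage sum of its group, 2437 CPM against 760 to 1350 CPM in the other 4, and the highest neutrophil sum, 106 CPM against 2.65 to 37.2 CPM. Their part in its Socs3 level was not tested.

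Cish was measured from few reads at 20 h, with 14.1, 4.36, 11.7, 15.6 and 13.4 CPM after OVA particles and 12.5, 2.36, 4.58, 7.16 and 3.78 CPM after BSA particles, against 4.38, 0, 35.4, 10.4 and 5.30 CPM in non-immunized DC. Single libraries held 0 to 24 reads of it. The log2 changes of 0.77 ± 0.58 (adjusted p = 0.396) and -0.25 ± 0.65 (adjusted p = 0.865) were not called. Without non-immunized replicate 3 the OVA change was 1.34 (adjusted p = 0.0882).

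No gene was called between OVA and BSA particles at 20 h by edgeR (0% higher and 0% lower, with 561 genes at an unadjusted p under 0.05), and DESeq2 called 0. All 7 members had positive log2 differences, with a median of 0.711 against 0.00180 over all genes. The values were 0.77 ± 0.25 for Stat2 (adjusted p = 0.635), 0.71 ± 0.26 for Stat4 (adjusted p = 0.720), 0.50 ± 0.24 for Socs1 (adjusted p = 0.799), 0.85 ± 0.59 for Socs3 (adjusted p = 0.871), 1.02 ± 0.57 for Cish (adjusted p = 0.832), 0.23 ± 0.14 for Stat3 (adjusted p = 0.847) and 0.11 ± 0.14 for Socs2 (adjusted p = 0.936). For each gene the OVA and BSA libraries overlapped.

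Relatives were read in the same libraries. Monocyte and macrophage markers summed to 160 to 428 CPM after OVA particles, 266 to 404 CPM after BSA particles and 760 to 2437 CPM in non-immunized DC, with 8 of 10 tested called lower in each comparison, and their part in the member values was not tested. All 16 type I interferon targets rose after OVA and 14 after BSA particles, with median log2 changes of 3.57 and 2.45. All 6 partners of STAT2 on the list rose after OVA and 5 after BSA particles, Irf9 with means of 280 and 203 CPM against 108 CPM in non-immunized DC. The receptor gene Ifngr1 fell in both, to 27.4 and 31.2 CPM against 77.0 CPM. Y-linked transcripts, which mark 3 non-immunized, 2 OVA and 0 BSA libraries, show that groups were not balanced for sex. A term for them left 4, 1 and 0 members called in the 3 comparisons, the numbers found without it. Over all genes the term left 187 calls for BSA particles (132 higher and 55 lower), against 499 without it (337 higher and 162 lower). With 1 library left out that total ran from 205 (without BSA replicate 1) to 494.

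**Figure D3:**
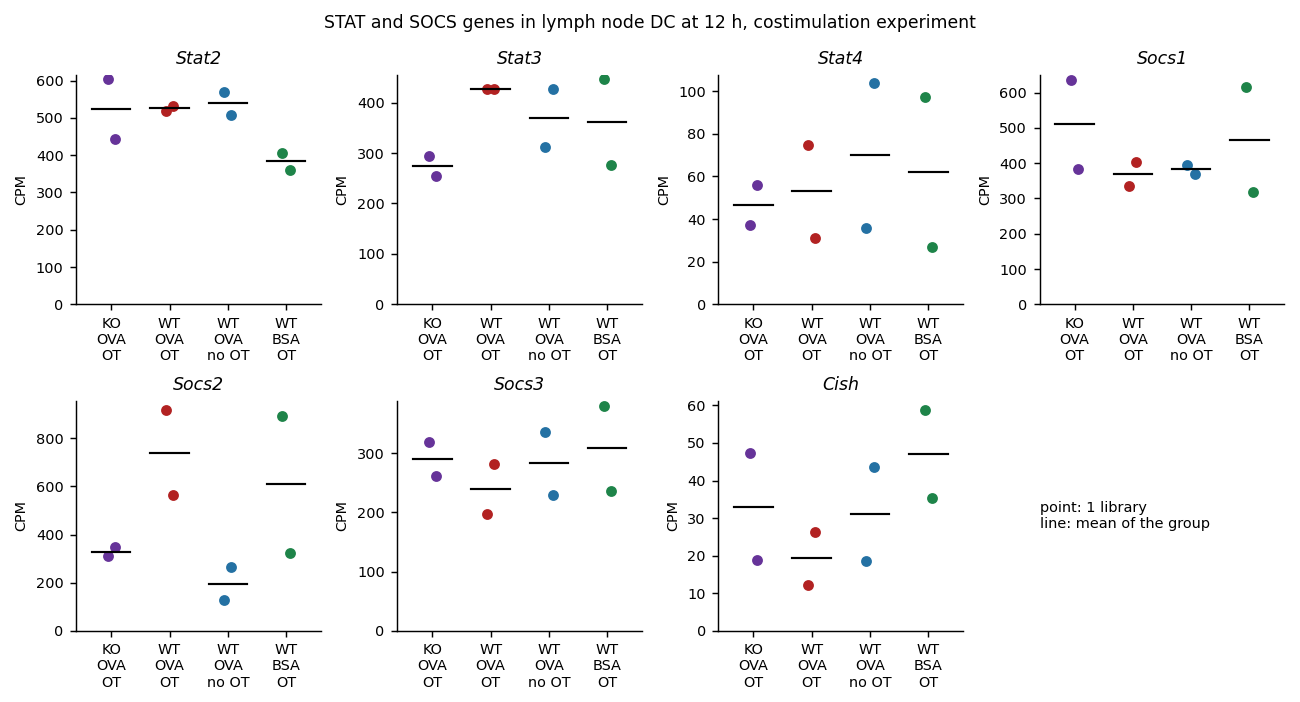
Levels of the 7 genes in the costimulation experiment at 12 h (y axis, CPM from 0) in Cd80/86 knockout (KO) and wild-type (WT) DC with OVA or BSA particles, with or without OT cells; points are libraries and lines means of 2. Socs2 is highest in both WT libraries with OVA and OT cells and in 1 of 2 with BSA and OT cells, and lower in both KO libraries.

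The costimulation experiment asked how OT cells, their antigen and the ligands Cd80 and Cd86 on DC affect the early response. No member was called in any of its 3 comparisons. Cd86 had 37.4 and 48.5 CPM in knockout DC, against 81.5 and 82.6 CPM in wild-type DC with OVA and OT cells, and Cd80 had 4.23 and 12.4 CPM against 11.4 and 10.0 CPM. Exon counts summed over a gene do not show whether the deleted part is read, so they do not check the knockout label.

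With OVA particles, DC from mice with OT cells were compared with DC from mice without them, where 1.27% of the 9355 genes tested were called higher and 1.33% lower, and 0 members in either direction. That total of 243 genes rests on single libraries, with 12 called without OT replicate 1 and 8 without OT replicate 2, and was 917 with no filter on low counts. Socs2 had 917 and 563 CPM with OT cells, against 128 and 264 CPM without, so that the groups do not overlap. Its log2 difference of 2.00 ± 0.51 just missed the threshold (adjusted p = 0.0660) and passed it in 6 of 10 alternatives, among them DESeq2 (adjusted p = 0.00184) and the fit without no-OT replicate 2 (2.56, adjusted p = 0.0487). The other 6 members overlapped between the groups and had log2 differences between -0.65 (Cish) and 0.28 (Stat3). Migratory and mature DC markers summed to 8553 to 10032 CPM with OT cells and 2027 to 3789 CPM without, NK cell markers to 111 to 261 CPM with OT cells and 2454 to 6059 CPM without, and plasmacytoid DC markers to 1817 to 1974 CPM with and 3861 to 6905 CPM without. Ifng, an NK and T cell product, was lower with OT cells, with means of 11.4 and 1440 CPM. The part of these cells in the Socs2 values was not tested.

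When mice with OT cells received OVA or BSA particles, 0% of genes were called higher and 0.0107% lower, which is 1 gene and no member (DESeq2 called 12 genes, and 850 had an unadjusted p under 0.05 in edgeR). In edgeR 200 genes were called without BSA replicate 1 (68 higher and 132 lower) and 227 with no filter on low counts. Cish had the largest difference, at 12.2 and 26.3 CPM with OVA against 58.9 and 35.4 CPM with BSA (-1.26 ± 0.59, adjusted p = 0.571). Stat2 was at 519 and 533 CPM with OVA, above 407 and 360 CPM with BSA, a log2 difference of 0.53 ± 0.29 (adjusted p = 0.630). The BSA libraries differed from each other in Socs2, with 894 and 325 CPM, and the OVA values of 917 and 563 CPM overlap with them. In the same order, these BSA libraries had migratory and mature DC sums of 13606 and 5978 CPM and plasmacytoid DC sums of 1922 and 8689 CPM. With OVA the sums were 8553 to 10032 CPM and 1817 to 1974 CPM. The part of these markers in the Socs2 values was not tested.

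Knockout DC were compared with wild-type DC, both with OVA particles and OT cells, and edgeR called 0% of genes higher and 0% lower, with 1068 at an unadjusted p under 0.05 and 44 called by DESeq2. With only these 4 libraries in the fit edgeR called 679 genes (271 higher and 408 lower), and with no filter on low counts 303. Socs2 had 309 and 346 CPM in knockout DC, against 917 and 563 CPM in wild-type DC (-1.24 ± 0.49, adjusted p = 0.400). Stat3 had 295 and 254 CPM in knockout DC, against 426 and 427 CPM in wild-type DC (-0.70 ± 0.32, adjusted p = 0.439). For both genes the groups do not overlap, and neither was called once adjusted over all genes, with unadjusted p-values of 0.0290 for Socs2 and 0.0510 for Stat3 in edgeR. For Socs2 the adjusted p was 0.0240 without a filter on low counts and 0.00281 in a fit of only these 4 libraries, where that of Stat3 was 0.0414. Migratory and mature DC markers summed to 4067 to 4985 CPM in knockout DC and 8553 to 10032 CPM in wild-type DC, and plasmacytoid DC markers to 3866 to 4056 CPM and 1817 to 1974 CPM. Their part was not tested. The other 5 members overlapped, with log2 differences of -0.30 to 0.82.

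**Figure D4:**
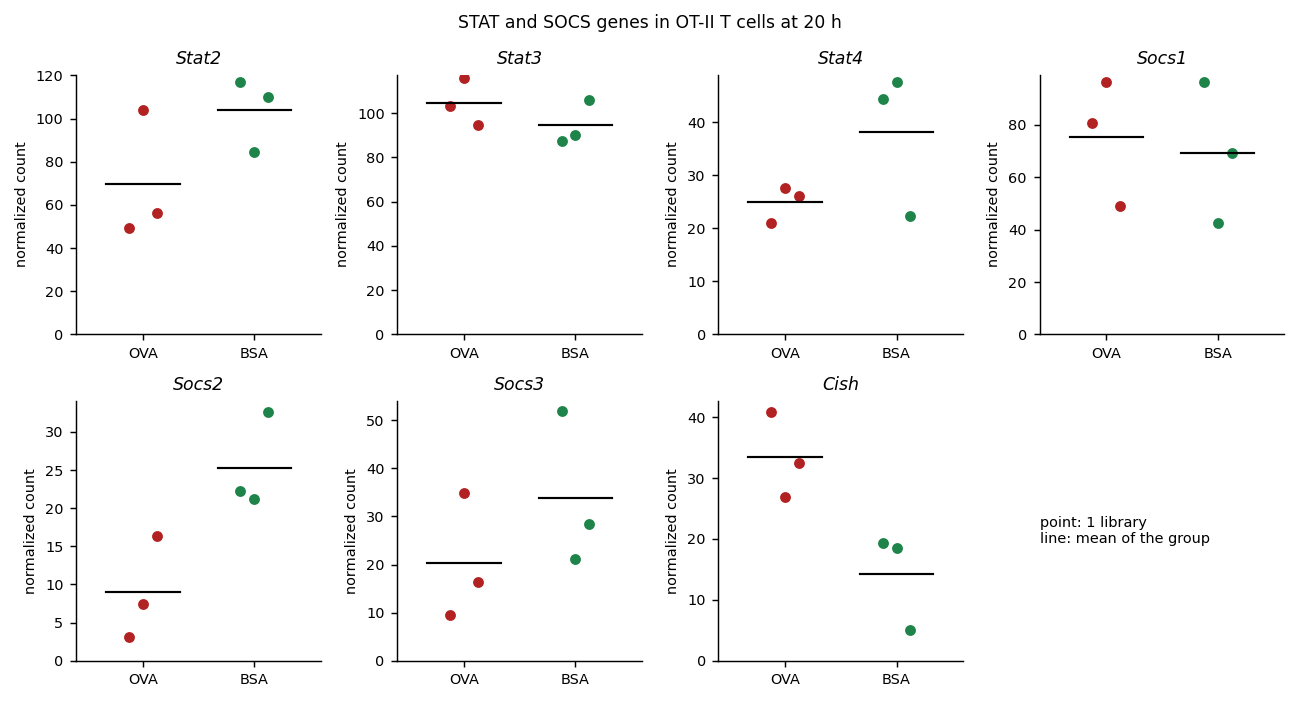
Levels of the 7 genes in OT-II T cells at 20 h (y axis, normalized count from 0) after OVA or BSA particles; points are libraries and lines means of 3. Socs2 of the 3 OVA libraries lies below, and Cish above, the 3 BSA libraries.

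In OT-II T cells the comparison of OVA with BSA particles asks how T cells respond to their antigen. Socs2 was lower with antigen, and Cish, known from activated T cells as an inhibitor downstream of the receptor for interleukin-2, was higher in every library without passing the test. By limma 0 members were called higher and 1 lower, while 10.8% of the 6452 genes tested were higher and 5.04% lower. The median log2 change of the 7 members was -0.533, against 0.0410 over all genes.

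Socs2 had normalized counts of 3.15, 7.39 and 16.4 after OVA particles, against 22.2, 21.2 and 32.6 after BSA particles. All 3 OVA libraries are below the BSA ones, and they rest on 3, 11 and 53 reads. The change on the log2(normalized count + 1) scale was -1.61 ± 0.48 (adjusted p = 0.0406). It was lost without OVA replicate 1 (-1.10, adjusted p = 0.125), BSA replicate 1 (-1.69, adjusted p = 0.0848), BSA replicate 2 (-1.72, adjusted p = 0.0629) or BSA replicate 3 (-1.43, adjusted p = 0.151). The 6 conventional DC markers of this table summed to normalized counts of 384, 2596 and 1569 after OVA particles and 3036, 2328 and 2499 after BSA particles. Their part in the Socs2 values was not tested.

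Cish had normalized counts of 40.9, 26.9 and 32.4 after OVA particles, against 19.3, 18.5 and 5.09 after BSA particles. The groups do not overlap, and the change of 1.34 ± 0.43 had an adjusted p of 0.0545. With edgeR on the recovered reads it was 1.30 and called (adjusted p = 0.0356). Over all alternatives without a library left out the adjusted p lay between 0.0356 and 0.0612. With 1 library left out it lay between 0.0420 (without OVA replicate 2, 1.48) and 0.169 (without OVA replicate 1, 1.19), and the change was called without OVA replicate 2 or BSA replicate 1 or 2. Without BSA replicate 3, the lowest library, it was 0.77 (adjusted p = 0.143).

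The other members overlapped between OVA and BSA T cells. Stat2 had normalized counts of 49.3, 104 and 56.2 after OVA particles and 117, 84.7 and 110 after BSA particles, a change of -0.63 ± 0.28 (adjusted p = 0.144). Without OVA replicate 2, whose Stat2 level is the highest of its group, the change was -0.95 and called (adjusted p = 0.0129), and that of Socs3 was -1.28 (adjusted p = 0.0399) where all libraries gave -0.80 ± 0.44 (adjusted p = 0.226). That library also had the highest sums of conventional DC and B cell markers among the OVA libraries. Stat4 (-0.53 ± 0.32, adjusted p = 0.260), Stat3 (0.14 ± 0.20, adjusted p = 0.660) and Socs1 (0.14 ± 0.33, adjusted p = 0.791) were not called.

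Among the relatives in T cells Stat5a, which transmits interleukin-2 signals, rose to a mean normalized count of 37.5 after OVA particles, against 17.1 after BSA particles (1.07 ± 0.30, adjusted p = 0.0318). The cytokine genes Il2 and Lif rose, Il2 to 128 against 8.98 (3.70 ± 0.29, adjusted p = 9.43e-05). The receptor chain Il2ra rose to 76.3 against 15.7 (2.27 ± 0.33, adjusted p = 0.00295), and Il7r fell to 49.0 against 103. Of 8 tested STAT5 targets 5 rose, Gadd45b and Ccnd2 among them, and of 9 STAT3 targets 3 rose, Myc, Pim1 and Batf. Of 16 tested type I interferon targets 0 were called, with a median change of -0.587, and Irf9 fell by 0.76 ± 0.22 (adjusted p = 0.0341).

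**Figure D5:**
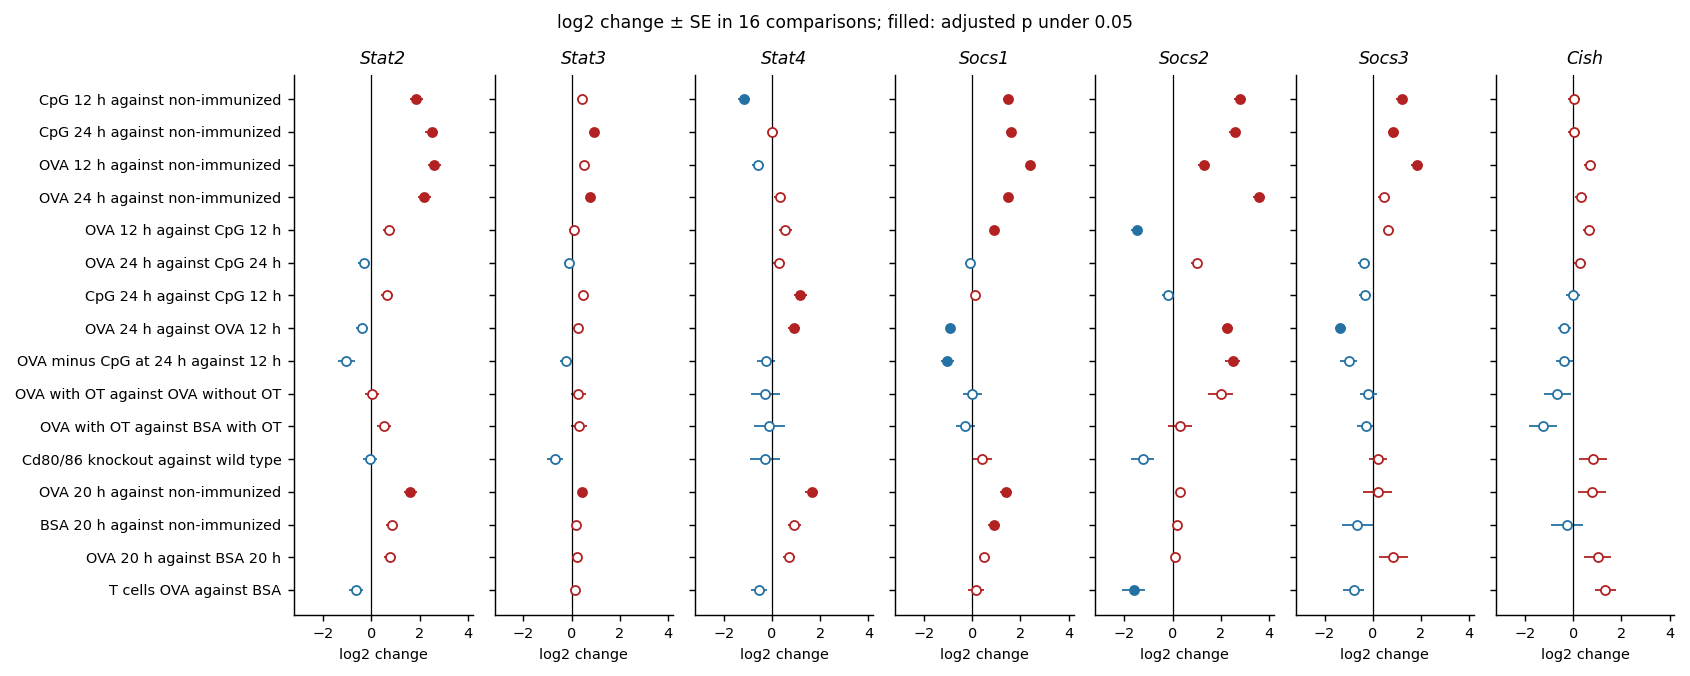
Log2 change ± SE (x axis) of the 7 genes in the 16 comparisons (rows, first-named group over the second); filled points have an adjusted p under 0.05, and red and blue mark positive and negative values. Filled points gather in the rows that compare immunized with non-immunized DC, where Stat2, Socs1 and Socs2 are filled in all 4 rows of the time course.

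Over the 33 DC libraries the genes whose levels ran most like each member were named by Pearson r of log2(CPM + 1), centred on the mean of each experiment, among 7170 genes with at least 10 CPM on average in every experiment. These values describe libraries that share treatments and depth and carry no p. Stat2 ran most like the interferon-induced genes Mx2 (r = 0.95), Daxx (0.95) and Parp14 (0.94), and Socs1 like Tap1 (0.90), Daxx (0.90) and Dhx58 (0.89). Socs2 ran most like Pfkfb3 (0.97), Slc4a8 (0.96) and Adcy6 (0.96). For Stat3 the genes were Phlpp1 (0.78), Il2ra (0.73) and Klf6 (0.72), and for Stat4 they were Ramp3 (0.81), Ccnd2 (0.73) and Rnf31 (0.71). Socs3 was closest to Myd88 (0.79), an adaptor of Toll-like receptors, Dck (0.76) and Vmp1 (0.73), and Cish had the lowest values, with Tpst2 (0.68), Crem (0.67) and Txnrd1 (0.64). Within single experiments many of these values were lower. In the costimulation experiment r was 0.13 for Socs3 with Dck, 0.33 for Socs1 with Dhx58 and 0.42 for Stat4 with Ccnd2. In the time course it was 0.38 for Cish with Crem and 0.47 for Stat3 with Il2ra, and at 20 h 0.59 for Socs2 with Pfkfb3. For Stat2 the lowest was 0.83, with Mx2 and Parp14 in the costimulation experiment.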

How the data were processed

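RNA of sorted DC and OT-II T cells was captured with oligo(dT) and amplified in pooled plate libraries, per the labels' protocols. Reads were demultiplexed with bcl2fastq, aligned with HISAT 0.1.6 to mm9 and summed with HOMER, per the submitters' processing notes. The DC tables hold raw counts per gene that the authors deposited, and 4 columns of no listed sample were not used. The T cell table that the authors deposited holds a normalized signal, counts divided by a size factor per library: all of its values (100.0%) came out as whole reads within 0.01 reads. Raw counts had been planned for, so T cells were tested with limma 3.58.1 (trend) on log2(normalized count + 1), which understates changes of low genes, for genes with at least 10 in 3 or more libraries.

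DC counts were tested with edgeR 4.0.16 (quasi-likelihood, TMM, filterByExpr) in R 4.3.3, with every library of an experiment in 1 fit. Adjustment for multiple tests used the Benjamini-Hochberg method over all genes tested, and called means under 0.05. CPM use the library total. The fits were tested on simulated data. Alternatives were DESeq2 1.42.0, its size factors, other filters and pseudocounts, a replicate block, only the groups compared, each library left out, and a term for Y-linked transcripts over 20 CPM that was chosen after seeing the data. Members and lists were chosen with earlier results of these data known. The 7 members are given throughout, with up to 4 called genes of a list by smallest adjusted p, STAT factors and Janus kinases in any comparison, and the 3 genes most like each member. Genes named outside that rule were chosen after their values were seen. Not every gene on the pathway lists is reported here.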

Additional observations from a re-analysis of the deposited data

Results flagged for a closer look

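Of 21 groups of 4 or more libraries examined for a library far from the others, 4 held one, where chance gives about 1 in 20. In non-immunized DC of the 20 h experiment, replicate 3 was far below the others for Socs2 (901 CPM) and far above them for Socs3 (98.0 CPM). After OVA particles at 20 h, replicate 2 was far above the others for Stat3 (587 CPM) and replicate 3 for Socs1 (254 CPM).

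The change between 12 h and 24 h differed between OVA and CpG-only particles for Socs2 (log2 interaction 2.49) and Socs1 (-1.03) by the test of the difference itself.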

How the results depend on the processing

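Called member changes kept their call in 192 of the fits with all libraries kept and lost it in 10, and with 1 library left out they kept it in 125 and lost it in 47; none changed sign. Members called moved to 7 with only the groups compared for OVA against non-immunized DC at 12 h, to 1 for OVA against CpG at 24 h (DESeq2, no filter), to 2 (no filter) and 0 (only the groups) for CpG at 24 h against 12 h, to 1 (DESeq2, only the groups) and 4 (no filter) for the interaction, to 1 for OVA with against without OT (DESeq2, no filter, 1 CPM, only the groups), to 1 (no filter) and 2 (only the groups) for knockout against wild type, to 3 (DESeq2, no filter, only the groups) and 2 (1 CPM) for BSA at 20 h, and to 2 in T cells (pseudocount 5, edgeR on recovered reads). The cause was not tested.

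Replicate numbers gave no uniform pairing of the samples. With group means subtracted, libraries of the same replicate number in the groups compared correlated at -0.1427 to 0.1673, and some passed the level of 0.1 set for a pair. A replicate block gave 1 called member for OVA with against without OT (Socs2, log2 2.03, adjusted p = 0.0100) and ended the Stat3 call of OVA at 20 h (adjusted p = 0.0657). With BSA and OT cells as the comparison it turned Stat3 to -0.09 and Socs2 to -0.33. Other uncalled changes that turned were Stat4 for CpG at 24 h against non-immunized DC (-0.0045, no filter), Cish for CpG at 24 h against 12 h (-0.01 with size factors and with 1 CPM, -0.0011 with no filter) and Socs1 for OVA with against without OT (-0.01 with DESeq2 and with its size factors).

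With 1 library left out, members called ranged over 3 to 5 (CpG at 24 h against non-immunized DC), 0 to 1 (OVA against CpG at 12 h, the same at 24 h, and with against without OT), 0 to 2 (CpG at 24 h against 12 h), 2 to 3 (OVA at 24 h against 12 h), 1 to 4 (interaction), 0 to 3 (BSA at 20 h) and 0 to 4 (T cells). A left-out arm with 1 library is assumed to vary like the other groups. Uncalled log2 changes that turned in such fits ranged as follows. Against non-immunized DC, Cish ran from -0.04 to 0.11 for CpG at 12 h, from -0.39 to 0.48 for CpG at 24 h and from -0.72 to 0.32 for BSA at 20 h. Stat4 ran from -0.24 to 0.27 for CpG and from -0.03 to 0.62 for OVA at 24 h, and Socs3 from -0.13 to 1.49 for OVA and from -0.98 to 0.64 for BSA at 20 h. For OVA against CpG at 24 h the ranges were -0.68 to 0.27 (Stat2), -0.34 to 0.08 (Stat3), -0.05 to 0.6 (Stat4), -0.26 to 0.09 (Socs1), -0.66 to 0.1 (Socs3) and -0.14 to 0.71 (Cish). For CpG at 24 h against 12 h they were -0.09 to 0.25 (Socs1) and -0.44 to 0.42 (Cish), and for the interaction -0.61 to 0.03 (Stat4) and -0.78 to 0.04 (Cish). With against without OT they were -0.08 to 0.17 (Stat2), -1.03 to 0.63 (Stat4), -0.15 to 0.16 (Socs1), -0.48 to 0.19 (Socs3) and -1.25 to 0.03 (Cish). OVA against BSA with OT gave -0.07 to 0.84 (Stat3), -0.87 to 1.22 (Stat4), -0.75 to 0.43 (Socs1), -0.28 to 1.4 (Socs2) and -0.67 to 0.23 (Socs3). Knockout against wild type gave -0.33 to 0.14 (Stat2), -0.73 to 0.46 (Stat4), -0.02 to 0.73 (Socs1), -0.05 to 0.53 (Socs3) and -0.07 to 1.45 (Cish), and T cells -0.17 to 0.42 (Socs1). Cish and Socs3 at 20 h and Socs2 in T cells rest on few reads, which limits the precision of their values.

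Counts of called genes over the whole table moved by more than 1.5 times under some alternative in every comparison except OVA at 20 h against non-immunized DC. Values not given beside the results follow. With 1 library left out the lowest and highest were 714 and 1099 (CpG at 12 h against non-immunized DC, 1535 with all), 446 and 1126 (CpG at 24 h, 1038), 529 and 831 (OVA at 12 h, 1282), 641 and 1054 (OVA at 24 h, 1332), 24 and 168 (OVA against CpG at 12 h, 232), 274 and 1148 (CpG at 24 h against 12 h, 719), 293 and 563 (OVA at 24 h against 12 h, 839), 155 and 744 (interaction, 319) and 369 and 1467 (T cells, 1025). DESeq2 gave 1014, 794, 887, 443 and 519 (CpG and OVA at 12 h and OVA at 24 h against non-immunized DC, and 24 h against 12 h of CpG and OVA), no filter 469 (OVA against CpG at 12 h), 594 (interaction) and 2 (OVA against BSA at 20 h, 0), and only the groups 413 (OVA against CpG at 12 h), 242 (CpG at 24 h against 12 h) and 486 (with against without OT). A replicate block gave 696 with against without OT (243) and 48 for knockout against wild type (0).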
